A study of Mus musculus with 8 samples.

Results

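The adipocyte genes examined here were Adipoq, Lep, Plin1, Fabp4, Cfd, Retn, Lipe, Pparg, Cidec and Ucp1, read in skin of the mouse forepaw after an injection of pituitary adenylate cyclase-activating polypeptide (PACAP). They were taken as the non-control probes that the scanner files name after one of these genes, which gave 13 probes on 31 spots for 10 of the 29608 gene names on the array, or 13 of 39429 probes. Skin RNA was hybridised on 8 two-colour Agilent arrays, with PACAP-treated and vehicle-treated RNA of the same genotype and time on each array. The 4 comparisons were C57BL/6 wild-type (WT) mice at 30 min, WT mice at 60 min, Adcyap1r1 -/- (PAC1R KO) mice at 30 min and PAC1R KO mice at 60 min. PAC1R is the receptor selective for PACAP, and the deletion was carried by the PACAP-treated and the vehicle-treated KO mice alike. The mice were male, 9 to 10 weeks old and 6 per genotype, and were anaesthetised before 5 µL of vehicle (saline with 0.1% BSA) or of 1e-07 mol/L PACAP in vehicle was injected into the footpad. No uninjected skin is among the samples analysed here, and how many mice entered each RNA is not given in the sources used here.

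White adipocytes store triglyceride in a single large droplet and secrete hormones into the blood. In these cells, ligands of receptors coupled to the stimulatory G protein raise cAMP, protein kinase A phosphorylates perilipin and hormone-sensitive lipase, and stored fat is released as fatty acids. This step acts on proteins and does not need new transcripts, whereas cAMP also raises transcription of genes such as Ucp1 in brown and beige adipocytes. The subcutaneous layer under the dermis is rich in white adipocytes, so these transcripts can serve as a measure of how much fat a piece of skin held, and fewer adipocytes cannot be told apart from less RNA per adipocyte in bulk tissue.

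Each comparison was hybridised on 2 arrays with the dyes swapped, which were averaged and counted as 1 sample, so animals were not replicated within a comparison. One slide carried the WT arrays and another the KO arrays, and the effect of genotype cannot be told apart from that of the slide. Red signals were well above background for 78.6% to 94.5% of spots per array and green signals for 54.0% to 65.3%. Adcyap1r1, the gene deleted in the KO mice, had log2 levels of 8.26 to 8.76 in the 4 WT samples and 7.91 to 8.56 in the 4 KO samples, which overlapped, so its probe did not separate the genotypes and each sample carries the genotype of its label. Whether that probe lies in the deleted part is not given in the sources used here. Other cell types moved between paired samples. Genes of skeletal muscle had a median log2 ratio of PACAP over vehicle that stood at 0.75 for WT and at -0.64 for KO after 30 min, and genes of hepatocytes had -1.66 in WT at 60 min. These values are given again beside the adipocyte genes where they bear on the same samples.

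The promoters of 3 adipocyte genes are shown because these genes carried the only matches among the letters searched. The RefSeq table held 13 start windows for 9 of the 10 genes (Fabp4 had none), on GRCm38.p6. Both strands were searched from 250 bases before to 50 bases after each start for TGACGTCA (the cAMP response element), TGACG (its half-site, which lies within the full element), TTGCGCAA (a C/EBP palindrome), a pair of AGGTCA half-sites 1 base apart (a PPAR element) and TATAAA. The 250 bases before the start follow, 5′ to 3′ on the gene's strand, with matches in capitals. Ucp1 is on the plus strand at chr8:83290098-83290347, Lep on the plus strand at chr6:29059971-29060220 and Pparg, for one of its 3 windows, on the plus strand at chr6:115362099-115362348.
Ucp1: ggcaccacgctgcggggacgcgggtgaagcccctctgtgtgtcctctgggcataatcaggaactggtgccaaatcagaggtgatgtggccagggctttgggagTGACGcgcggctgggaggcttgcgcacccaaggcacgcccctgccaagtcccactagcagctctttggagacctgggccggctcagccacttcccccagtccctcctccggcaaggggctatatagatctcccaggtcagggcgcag
Lep: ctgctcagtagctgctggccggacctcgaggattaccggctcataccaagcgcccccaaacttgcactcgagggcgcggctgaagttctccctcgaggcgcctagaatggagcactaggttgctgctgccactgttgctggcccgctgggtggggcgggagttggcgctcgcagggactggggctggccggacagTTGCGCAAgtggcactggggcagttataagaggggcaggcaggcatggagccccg
Pparg: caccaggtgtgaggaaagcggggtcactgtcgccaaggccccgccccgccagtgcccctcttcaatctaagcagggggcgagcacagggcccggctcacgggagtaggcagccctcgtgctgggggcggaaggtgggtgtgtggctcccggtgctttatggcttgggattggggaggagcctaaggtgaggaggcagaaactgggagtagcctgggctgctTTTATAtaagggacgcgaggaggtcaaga
The capitals mark TGACG in Ucp1, 147 to 143 bases before the start, the C/EBP palindrome in Lep, 55 to 48 bases before the start, and TATAAA read on the opposite strand in Pparg, 29 to 24 bases before the start. The full cAMP response element was in 0 of the 13 windows and in 1.79% of all 32851 promoter windows of this length. The half-site was in 1 of 13 and in 20.8% of all, the C/EBP palindrome in 1 of 13 and in 0.183%, the PPAR element in 0 of 13 and in 0.0396%, and TATAAA in 1 of 13 and in 13.6%. A match is a run of letters and not a measured binding site. Sequence further from the starts was not searched, so these counts do not show whether a gene can respond to cAMP.

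All 10 adipocyte genes gave signal in paw skin. The brightest probes of Adipoq, Plin1, Fabp4, Cfd, Retn, Lipe, Pparg, Cidec and Ucp1 were well above background in 16 of 16 channels, and that of Lep in 13 of 16, its 3 dim channels being 1 of vehicle in WT at 30 min and 1 each of vehicle and PACAP in KO at 30 min. A second probe of Lipe was well above background in 3 of 16 channels and was left out of the fits, which left 12 of 13 probes. Levels below are log2 intensities, averaged over the dye swap, and are compared between samples within a probe only. The range over the 8 RNA samples had a median of 0.32 over the 10 genes, against 0.42 over all 30351 probes tested, and 8 of the 10 ranges lay between 0.20 and 0.38. The exceptions were Retn, at 0.77, and Ucp1, at 1.14, a range larger than that of 96.3% of all probes tested. The ranges depended on the scaling. With signals scaled to each channel's 75th percentile, the median was 0.42 over the 10 genes and 0.79 over all probes tested, and Lep ranged over 1.73, Lipe over 0.51, Fabp4 over 0.45, Retn over 0.83 and Ucp1 over 1.79. Lep was thus narrow with one scaling and wider than 90.9% of probes with the other.

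**Figure D1:**
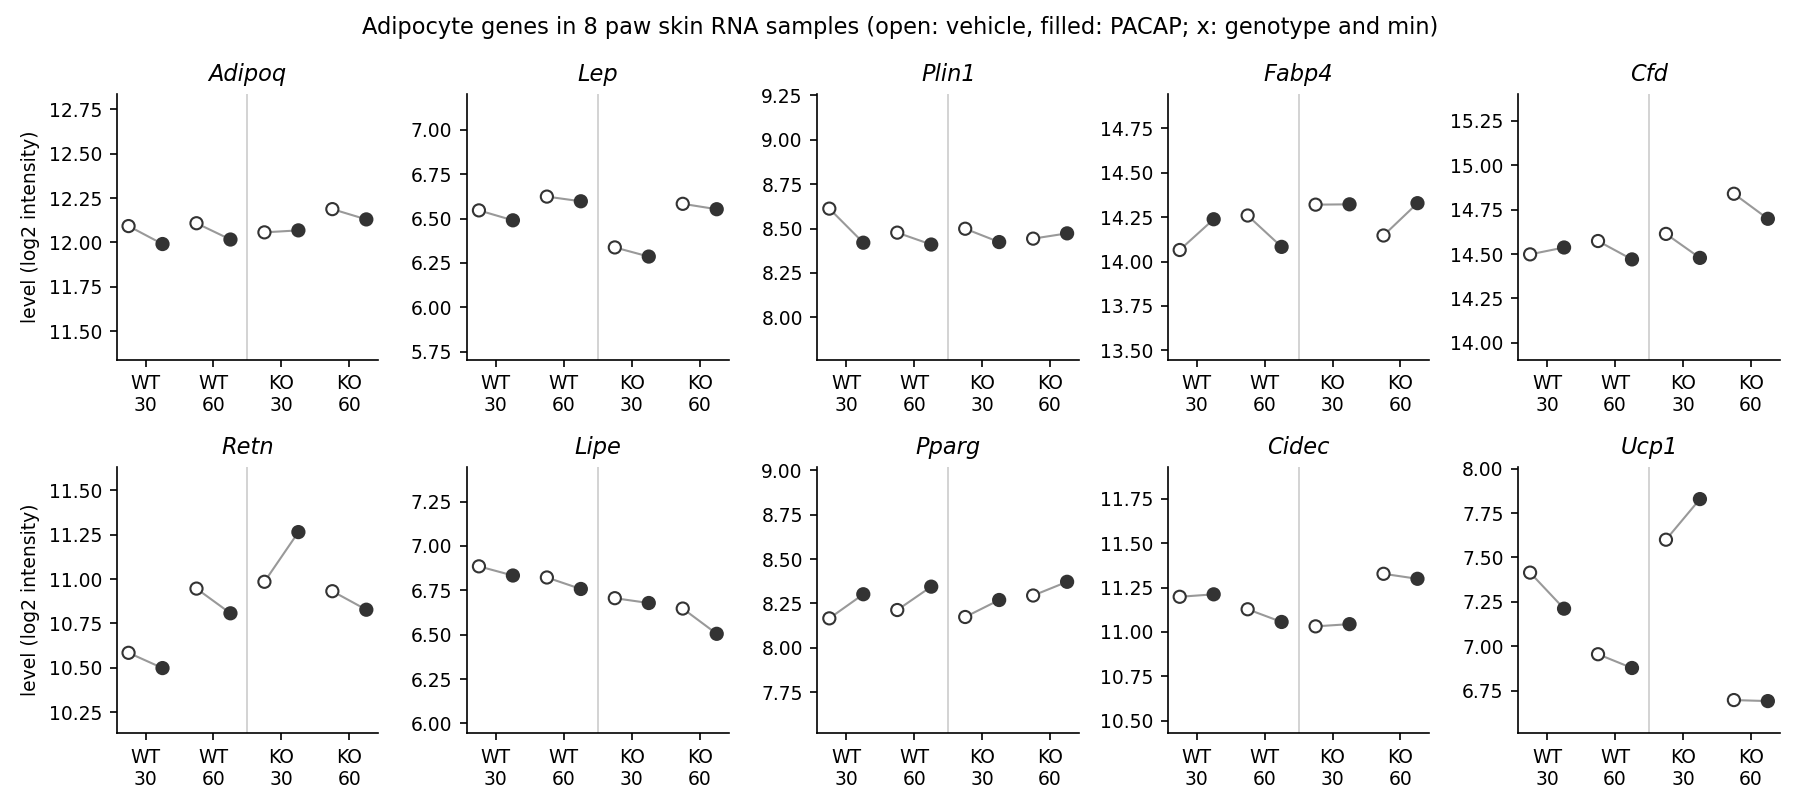
Level of each adipocyte gene (log2 intensity, brightest probe, mean of the dye-swapped arrays) in the 8 RNA samples. Open points are vehicle, filled points PACAP, and lines join the samples hybridised together; all panels span the same height. Adipoq stays between 11.99 and 12.19, whereas Ucp1 spans 6.69 to 7.83 and is lower at 60 than at 30 min.

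Adipoq encodes adiponectin, a hormone made almost only by adipocytes, and its probe lies at chr16:23157576-23157635 of mm9. Its level was 12.09 in vehicle and 11.99 in PACAP samples of WT mice at 30 min, and 12.11 and 12.02 after 60 min. The KO mice gave 12.06 and 12.07 at the earlier time and 12.19 and 12.13 at the later one. The 8 values differed by at most 0.20, or by 0.37 with signals scaled to the 75th percentile, and WT and KO values overlapped. PACAP over vehicle was 0.901-fold and 0.911-fold in WT at 30 and 60 min, and 1.00-fold and 0.992-fold in KO.

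Cfd encodes adipsin, the complement protease factor D, which mature fat secretes in quantity. Its level lay between 14.47 and 14.84 (probe at chr10:79355302-79355361 of mm9), with the highest value in the vehicle sample of KO at 60 min. Its ratio was 1.02-fold and 0.908-fold in WT mice, and 0.899-fold and 0.918-fold in KO mice, after 30 and 60 min. Adipoq and Cfd had the most similar profiles among the 36 pairs of the 9 genes other than Ucp1, with a Pearson r of 0.78 over the 8 samples, which share arrays in pairs. The median r of the 36 pairs was 0.078 and the lowest -0.70.

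Lep encodes leptin, the satiety hormone, and was the dimmest in terms of detection. Its 10 spots (chr6:29023234-29023293 of mm9) gave levels of 6.29 to 6.62, the lowest being the PACAP and the vehicle samples of KO at 30 min. The ratio was 0.883-fold and 0.991-fold in WT at 30 and 60 min, and 0.777-fold and 0.955-fold in KO. In KO at 30 min the dye-swapped arrays gave log2 ratios of 0.16 and -0.88, a gap wider than for any other adipocyte gene in any comparison, so its value there is not settled.

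Retn encodes resistin, an adipocyte hormone in mice, and was the white adipocyte gene with the widest range on the main scale, whereas Lep ranged more widely with signals scaled to the 75th percentile. Its level was 10.58 in vehicle and 10.50 in PACAP samples of WT mice at 30 min, and 10.95 and 10.81 after 60 min. The KO mice gave 10.98 and 11.26 at the earlier time and 10.93 and 10.83 at the later one. Both WT samples at 30 min lay below the other 6. PACAP over vehicle was 0.923-fold, 0.850-fold, 1.23-fold and 0.945-fold in WT at 30 and 60 min and KO at 30 and 60 min. A second Retn probe, 1.28-fold in KO at 30 min and at most 0.909-fold in the other 3 comparisons, lay on the same side of 1 in each comparison.

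Of the genes of fat storage and release, Plin1 encodes perilipin, the coat of the droplet that gates lipolysis. Its level was between 8.41 and 8.61, and its ratio was below 1 in 3 of the 4 comparisons, at 0.835-fold and 0.893-fold in WT at 30 and 60 min and 0.927-fold in KO at 30 min, against 1.02-fold in KO at 60 min. Lipe encodes hormone-sensitive lipase, a main target of protein kinase A in fat. It lay between 6.50 and 6.89, and its ratio was below 1 in all 4 comparisons, from 0.872-fold in KO at 60 min to 0.983-fold in KO at 30 min. Fabp4, the fatty acid carrier of adipocytes, lay between 14.07 and 14.33 (chr3:10204452-10204511 of mm9), with ratios of 1.12-fold and 0.902-fold in WT mice and 0.991-fold and 1.13-fold in KO mice after 30 and 60 min.

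Cidec, whose protein enlarges lipid droplets by fusing them, had levels of 11.03 to 11.33 and ratios of 0.992-fold and 0.920-fold in WT and 1.02-fold and 0.987-fold in KO. Its probes lay on the same side of 1 in each comparison but differed in size. The dimmer one gave 0.869-fold and 0.886-fold in WT mice, and 1.29-fold and then 0.865-fold in KO mice, and its level of 6.98 to 7.62 had a range of 0.63 against 0.30 for the brighter one.

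Pparg encodes the nuclear receptor that drives adipocyte differentiation and fat storage genes. Its level was 8.17 in vehicle and 8.30 in PACAP samples of WT mice at 30 min, and 8.21 and 8.34 after 60 min. KO vehicle samples had 8.17 and 8.29 at the earlier and later time, and KO PACAP samples 8.27 and 8.37. PACAP was above vehicle in 4 of 4 pairs, by 1.11-fold in WT mice at both times, and by 1.06-fold and 1.04-fold in KO mice. The array ratio was above 1 on 7 of the 8 arrays, the other being the second array of KO at 60 min, at -0.016 on the log2 scale. Over the 4 comparisons the mean log2 ratio was 0.11 (SE 0.081, n = 4 comparisons, limma adjusted p = 1.00).

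No adipocyte gene passed the thresholds for PACAP against vehicle, which asked for an averaged ratio of at least 2.0-fold or at most 0.5-fold, one direction on the pair of arrays, and a p from the scanner software under 0.01 on each of them. In WT at 30 min, 0 of the 13 probes passed, against 0.35% of all probes. At 60 min in WT the figures were 0 of 13 and 0.692% of all probes, in KO at 30 min 0 of 13 and 0.708%, and in KO at 60 min 0 of 13 and 0.292%. With shares this small a count of 0 among 13 does not differ from the background, so the sizes of the ratios carry more than the count. The lowest mean ratio of any adipocyte probe was 0.756-fold, for Ucp1 in WT at 30 min, and the highest 1.29-fold, for the dimmer Cidec probe in KO at 30 min. Over single arrays, 0 of 104 values passed 1 on the log2 scale in either direction. An array p below 0.05 was found for 5 of the 104 values (4.81%), against 6.15% to 19.5% of the other probes per array.

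**Figure D2:**
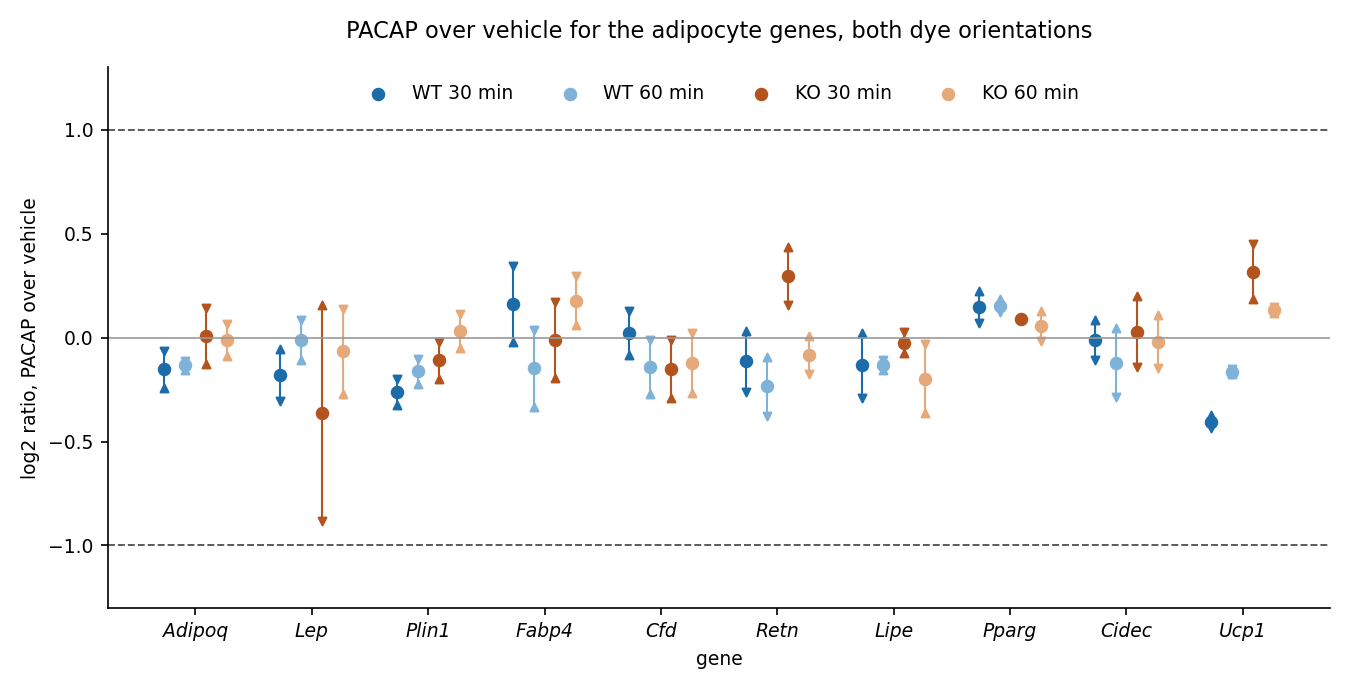
Log2 ratio of PACAP over vehicle for each adipocyte gene in the 4 comparisons. Circles are means of the dye-swapped arrays, upward triangles the array with PACAP in Cy5, downward triangles that with PACAP in Cy3, and dashed lines 2.0-fold and 0.5-fold; all values lie inside the dashed lines, and Ucp1 lies below 0 in WT and above 0 in KO.

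The median log2 ratio of the 10 genes was -0.12 and -0.14 in WT mice, and -0.0028 and -0.015 in KO mice, after 30 and 60 min. The same median over all probes tested was -0.048, -0.0097, -0.013 and 0.0047. In WT, 7 of 10 genes at 30 min and 9 of 10 at 60 min were below 0, the exception at 60 min being Pparg. In KO, 5 of 10 and 6 of 10 were below 0. With normexp and loess ratios the WT medians were nearer 0, at -0.054 and -0.075, and the KO medians were 0.0065 and -0.029.

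The mean over the 4 comparisons bounds what a shared response could have been. In limma over all 30351 probes tested, the 12 adipocyte probes had mean log2 ratios from -0.16 (Lep) to 0.11 (Pparg), and all had an adjusted p of 1.00. Their 95% intervals together spanned 0.765-fold to 1.24-fold. None of the 12 was at an unadjusted p below 0.05, and over all probes 0 passed the adjusted threshold and 678 the unadjusted one. For Adipoq the interval was 0.826-fold to 1.10-fold, for Plin1 0.789-fold to 1.07-fold and for Lipe 0.799-fold to 1.06-fold. These intervals treat the genotypes and times as 4 repeats of one effect, and each rests on 4 values.

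**Figure D3:**
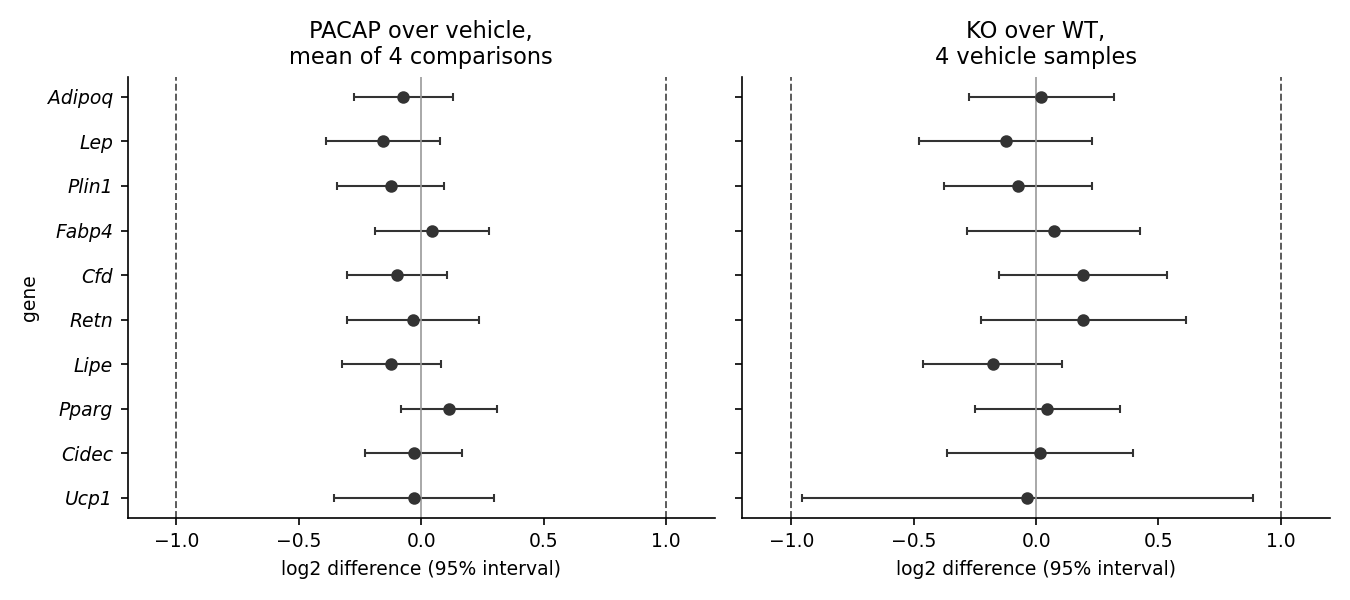
Limma estimates with 95% intervals for the brightest probe of each adipocyte gene, for PACAP over vehicle across the 4 comparisons (left) and KO over WT in the 4 vehicle samples (right). Dashed lines mark 1 on the log2 scale; all intervals lie inside them, and the widest is that of Ucp1 between genotypes.

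The genes were also averaged as a measure of fat. The mean of the 9 genes other than Ucp1, each centred on its own mean over the 8 samples, lay between -0.039 in the PACAP sample of WT at 30 min and 0.058 in the vehicle sample of KO at 60 min, a range of 0.098 on the log2 scale. Single genes varied about that mean, with an SD over the 9 genes of 0.061 to 0.18 within a sample. This SD exceeded the range of the mean in 6 of 8 samples. The median r between pairs of the 9 genes was 0.078, so the narrow mean does not show that fat content was constant. With signals scaled to the 75th percentile the same mean ran from -0.14 in the PACAP sample of WT at 30 min to 0.15 in the vehicle sample of WT at 60 min, a range of 0.291, or of 0.23 without Lep. On the main scale, skeletal muscle genes had a median range of 1.00 over the same samples (n = 12 genes), red blood cell genes of 1.24 (n = 7), hepatocyte genes of 0.80 (n = 8), keratinocyte genes of 0.78 (n = 10) and the 9 white adipocyte genes of 0.30. The lists differ in brightness. In the WT vehicle sample at 30 min the median level was 13.4 for muscle, 6.37 for hepatocyte and 10.6 for white adipocyte genes. Ranges of the other lists with the 75th percentile scaling are not given here. The other lists of fat genes ranged more widely than these 9, with medians of 0.82 for other adipocyte genes (n = 18), 0.69 for droplet and lipolysis genes (n = 14) and 0.65 each for adipokines (n = 14) and brown fat genes (n = 12). In WT at 30 min, where the muscle list stood at a median log2 ratio of 0.75, with 12 of 12 genes above 0, the 9 genes stood at -0.11. In KO at 30 min, where muscle stood at -0.64 and keratinocyte genes at -0.64, they stood at -0.013. In WT at 60 min, where hepatocyte genes stood at -1.66 and red blood cell genes at -0.96, they stood at -0.13.

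**Figure D4:**
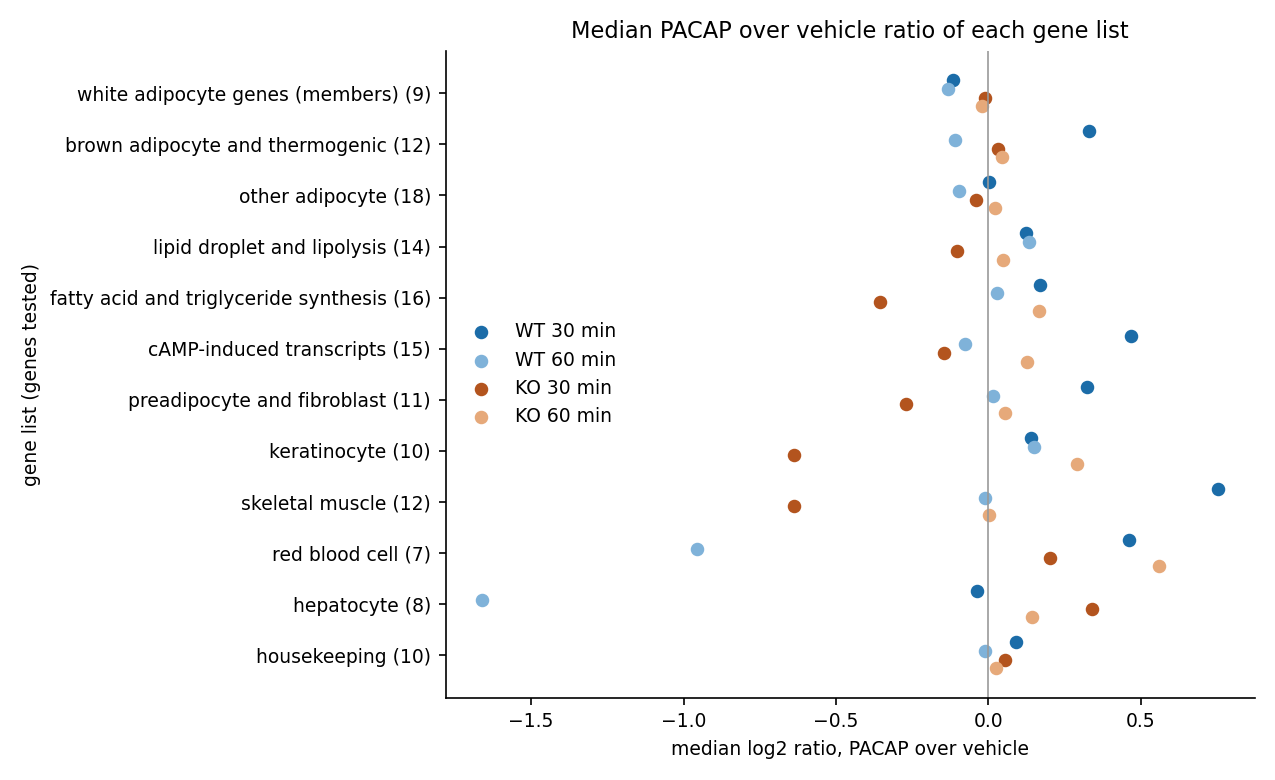
Median log2 ratio of PACAP over vehicle for gene lists of adipocytes, of fat metabolism and of other cell types, in the 4 comparisons; the number of genes tested is in brackets. The white adipocyte genes lie between -0.13 and -0.013, whereas skeletal muscle reaches 0.75 and -0.64 and hepatocyte genes -1.66.

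The vehicle samples of the genotypes gave similar levels of adipocyte genes. KO minus WT was 0.022 on the log2 scale for Adipoq (95% interval -0.27 to 0.32), 0.19 for Cfd (-0.15 to 0.53), 0.19 for Retn (-0.23 to 0.61), -0.18 for Lipe (-0.46 to 0.11) and -0.036 for Ucp1 (-0.96 to 0.88). In limma over 24903 probes, 0 of the 12 adipocyte probes passed an adjusted p of 0.05 or an unadjusted p of 0.05, and the smallest adjusted p was 0.89. Over all probes, 0 passed the adjusted and 1254 the unadjusted threshold. With 2 vehicle samples per genotype on separate slides, the interval for Ucp1 ran from 0.515-fold to 1.85-fold and was wider than that of any other adipocyte probe.

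Ucp1 encodes the mitochondrial uncoupling protein of brown and beige adipocytes, which burns fuel as heat, and had the widest range of the 10 genes. Its probe lies at chr8:85821788-85821847 of mm9. At 30 min its level was 7.41 in vehicle and 7.21 in PACAP samples of WT, and 7.60 and 7.83 in KO. At 60 min it was 6.95 and 6.88 in WT, and 6.70 and 6.69 in KO. All 4 samples at 60 min lay below all 4 at 30 min, in each genotype and each treatment, and the 60 min values did not overlap the 30 min values. The share of all probes that separated the times in this way was not counted. Among vehicle samples, 60 min minus 30 min for Ucp1 was -0.68 on the log2 scale (SE 0.14, 95% interval -1.05 to -0.31), or 0.623-fold. The p was 0.0062 before and 0.118 after limma's adjustment over 24903 probes, with the genotype held as a covariate, so the difference did not pass the adjusted threshold. In that fit 6300 probes (25.3%) had an unadjusted p below 0.05 and 0 an adjusted one. In the PACAP samples the difference was -0.74 (SE 0.24, limma adjusted p = 0.92). Samples at 30 and 60 min came from different mice.

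The 60 min minus 30 min difference in vehicle samples lay between -0.096 (Plin1) and 0.16 (Lep) for the brightest probes other than that of Ucp1. For Retn the mean of 0.15 joined unlike pairs, since 60 min minus 30 min was 0.36 and 0.31 in vehicle and PACAP samples of WT and -0.053 and -0.44 in those of KO. The dimmer Cidec probe stood apart, at 0.39 (SE 0.11, limma adjusted p = 0.14). With signals scaled to each channel's 75th percentile in place of the background-corrected and quantile-matched levels, Ucp1 fell by 1.07 (SE 0.23, limma adjusted p = 0.029, range over all alternatives 0.029 to 0.92) and Lep rose by 0.97 (SE 0.23, limma adjusted p = 0.042, range 0.042 to 0.95), and 1825 of 24903 probes passed. Lep was not well above background in 3 of 8 channels at 30 min and was above it in all 8 at 60 min.

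The genes of the brown fat list did not all run with Ucp1. Of its 12 genes, 2 were lower at 60 than at 30 min in 4 of 4 pairs (Ucp1 and Prdm16), 4 were higher in 4 of 4 (Cidea, Elovl3, Zic1 and Kcnk3) and 6 were mixed, and none passed limma's adjusted threshold in vehicle samples on the main scale. The share of all probes that ran one way in all 4 pairs was not counted, so the counts have no background beside them. In limma, 25.3% of all probes had an unadjusted p below 0.05 for time in vehicle samples. Cidea, a droplet protein, and Elovl3, a fatty acid elongase, are known in brown fat and also in sebaceous glands. In vehicle samples the difference was 0.99 for Cidea (SE 0.18, limma adjusted p = 0.118) and 1.18 for Elovl3 (SE 0.25, limma adjusted p = 0.119). Cidea had levels of 11.07 and 11.04 at 30 min and 11.73 and 12.37 at 60 min in vehicle samples of WT and KO, and Elovl3 had 8.97, 8.72, 9.65 and 10.40. Prdm16, a regulator of brown fat identity, was at a lower level (-0.40 in vehicle samples, limma adjusted p = 0.145). Ppargc1a, a coactivator induced in active brown fat, was lower in 3 of 4 pairs (-0.51, limma adjusted p = 0.119). Zic1, a transcription factor of the classical brown lineage, was at 0.35 (limma adjusted p = 0.21) and Kcnk3, a potassium channel, at 0.17 (limma adjusted p = 0.29). The sebaceous list had median centred levels of -0.24 and -0.12 in vehicle samples at 30 min and -0.015 and 0.12 at 60 min, in WT and KO. Elovl3 is itself on that list, and 6 of its 12 genes (Mc5r, Elovl3, Far2, Awat1, Dgat2l6 and Mgst1) were at a higher level at 60 min in vehicle samples of both genotypes. Scd3, Acaca, Plin2 and Dnase1l2 were at a lower level in both, and Fads2 and Krt79 differed between the genotypes. The share of all probes that moved one way in both genotypes was not counted. Far2, a fatty acyl reductase gene, was at 7.49 and 7.45 at 30 min and at 8.46 and 9.04 at 60 min in WT and KO. Awat1, a wax synthase gene, was at 9.53 and 9.15, and then at 10.30 and 10.84. The part of sebaceous glands in the Cidea and Elovl3 values was not tested.

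**Figure D5:**
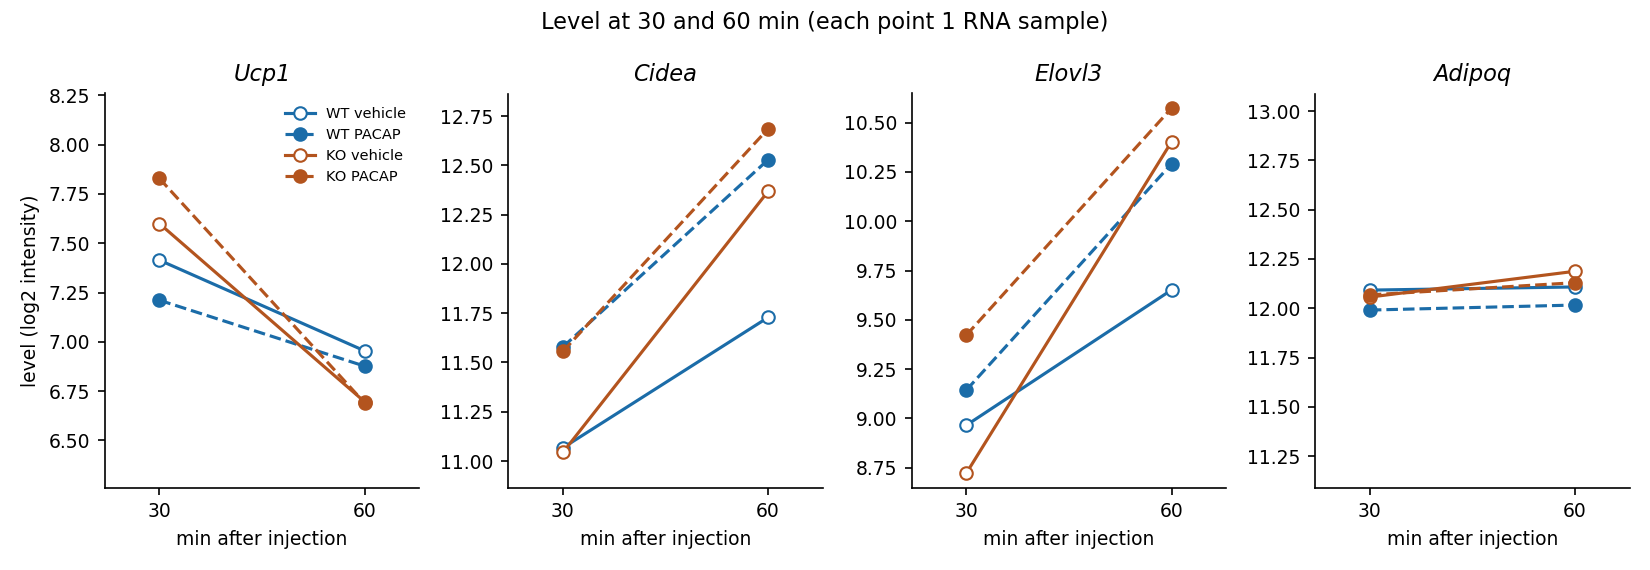
Level (log2 intensity) of Ucp1, Cidea, Elovl3 and Adipoq at 30 and 60 min after injection, each point 1 RNA sample and all panels of the same height. Ucp1 is lower and Cidea and Elovl3 are higher at 60 min in all 4 lines, whereas Adipoq lies between 11.99 and 12.19.

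The ratio of PACAP over vehicle for Ucp1 took opposite signs in the genotypes. It was 0.756-fold and 0.893-fold in WT at 30 and 60 min, with all 4 arrays below 1, and 1.25-fold and 1.10-fold in KO, with all 4 arrays above 1. The difference of KO from WT was 0.51 on the log2 scale (SE 0.21, 95% interval 0.0044 to 1.01). The p was 0.049 before and 0.84 after limma's adjustment over 30351 probes, of which 972 had an unadjusted p below 0.05 and 0 an adjusted one. The other 11 adipocyte probes had differences of -0.12 to 0.33 and adjusted p of 0.84 to 0.98. With normexp and loess ratios the difference for Ucp1 was 0.25 (SE 0.12, limma adjusted p = 0.85), and its ratio in KO at 60 min was -0.0058 on the log2 scale. The sign in that comparison thus depended on the normalization.

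Few genes of the related lists passed the thresholds for PACAP, and the counts past the thresholds are read against the shares of all probes given above. Of 14 genes of the droplet and of lipolysis, 0 passed in any comparison, and their median log2 ratio was 0.12 and 0.13 in WT at 30 and 60 min and -0.10 and 0.047 in KO. Pnpla2, the lipase that starts triglyceride breakdown, was at 1.11-fold, 0.901-fold, 0.729-fold and 1.02-fold, and Mgll, which completes it, at 1.40-fold, 1.39-fold, 0.884-fold and 1.24-fold, in WT at 30 and 60 min and KO at 30 and 60 min. Of 15 genes of the adrenergic and cAMP machinery, 0 passed, with medians of 0.15 and -0.011 in WT and -0.32 and 0.040 in KO, where 11 of 15 were below 0 at 30 min. Adrb3, the adrenergic receptor of adipocytes, was at 0.798-fold and 0.794-fold in WT and 1.19-fold and 0.848-fold in KO. Of 16 genes of fatty acid and triglyceride synthesis, 0 passed, with medians of 0.17 and 0.029 for WT pairs and -0.36 and 0.17 for KO pairs. In the KO pair at 30 min, where the medians of these lists were lowest, skeletal muscle and keratinocyte genes each stood at -0.64 and preadipocyte and fibroblast genes at -0.27, with 10 of 11 below 0, and the part of those cell types in the values was not tested.

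Transcripts that cAMP can induce in many cells were also examined, and their values do not single out the cAMP pathway. Of the 15 tested, 0 passed the thresholds in any comparison. Their median log2 ratio was 0.47 in WT at 30 min, with 13 of 15 above 0, and -0.077 after 60 min, with 5 of 15. In the KO mice it was -0.15 at 30 min, with 6 of 15 above 0, and 0.13 at 60 min, with 12 of 15. The orphan nuclear receptor gene Nr4a1 was at 1.73-fold and the immediate early gene Fosb at 1.82-fold in WT at 30 min, and at 0.903-fold and 1.24-fold in KO at 30 min. Vehicle samples of WT at 30 and 60 min and KO at 30 and 60 min had Fosb levels of 9.16, 10.70, 9.45 and 10.12. Their Nr4a1 levels were 11.97, 13.01, 12.04 and 12.66. The PACAP sample of WT at 30 min was at 9.99 for Fosb and 12.76 for Nr4a1, below the WT vehicle sample at 60 min for both. The 2 genes with a ratio below 1 in WT at 30 min were Crem, a cAMP-responsive repressor gene, at 0.870-fold, and Junb, at 0.917-fold. In KO at 30 min Crem was at 1.57-fold and Junb at 1.09-fold. Ppargc1a, with the lowest mean over the 4 comparisons, was at 1.44-fold for WT and at 0.352-fold for the KO pair of that time, the latter without passing the thresholds. Its levels in that KO pair were 6.63 in vehicle and 6.31 in PACAP, a smaller difference, so the size of the fall depended on the processing. The WT and KO pairs at 30 min are those in which the muscle list stood at 0.75 and -0.64, and the part of muscle in these values was not tested.

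Among 18 other adipocyte genes, 1 passed. This was Hp, which encodes haptoglobin and is made by fat, liver and inflamed tissue, at 3.55-fold in KO mice at 30 min, with 1.51-fold at 60 min, against 0.989-fold and 0.931-fold in WT mice. Among 14 adipokines, Lcn2, an antimicrobial lipocalin also made by epithelium and neutrophils, passed in KO at 30 min at 3.03-fold. Retnla, a resistin relative made by alternatively activated macrophages, passed in KO at 60 min at 0.191-fold, against 1.03-fold at the earlier time and 1.25-fold and 1.17-fold in WT mice. Its vehicle sample in that pair stood apart, at a level of 13.20 against 10.86 in the PACAP sample and 10.22 to 10.74 in the other 6. Of the 12 genes of the brown fat list, Slc27a2, a fatty acid transporter also made by liver, passed in WT at 60 min at 0.283-fold, in the pair where 5 of 8 hepatocyte genes passed downward. Levels of Slc27a2 in that pair were 6.61 in vehicle and 6.19 in PACAP, a smaller difference, so the size of its fall depended on the processing. The macrophage list had a median of 0.32 in KO at 30 min and 0.085, 0.040 and 0.017 in the other comparisons.

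Genes most like the mean profile of the 9 white adipocyte genes were sought among 1569 genes whose range over the 8 samples was at least 1 on the log2 scale. Thrsp, a lipogenic gene of fat and liver, came first (Pearson r = 0.92, n = 8 samples), with levels of 10.13 and 10.68 in vehicle samples of WT at 30 and 60 min and 10.21 and 11.10 in those of KO. It was followed by the unnamed probe A_55_P1993184, Trem2, Pon1, Zim3, Vmn2r3, Olfr74, AU023762, the probe A_55_P2146789 and Olfr704, with r from 0.89 down to 0.85. The profile they were matched to spans only 0.098, and samples share arrays in pairs, so the order describes these 8 samples.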

How the data were processed

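Total RNA of forepaw skin was hybridised on 8 two-colour Agilent arrays. Per the file headers, the authors' files came from Feature Extraction 12.0.3.1, whereas the submitters' processing notes name 11.0.1.1. The deposited log10 ratios (red over green), their p-values and the signal intensities were used, after control and outlier spots were left out. The deposited value table of log10 ratios equals the log ratio of the processed signals. From these, log2 ratios of PACAP over vehicle were computed with dyes turned the same way and averaged over the dye swap. Levels came from mean and background intensities by normexp (offset 50), loess and Aquantile in limma 3.58.1 (R 4.3.3). Where a gene had several probes, the brightest was used. Limma fits across all probes used Benjamini-Hochberg adjustment. On simulated data with 200 probes changed by 2 on the log2 scale, the fit over the 4 comparisons recovered 194, that of genotype on ratios 123, that of time 197 and that of genotype on levels 171, each with 5 to 20 false calls. At a change of 1, the fit over the 4 comparisons recovered 152 and the others 0. Fits on ratios kept probes well above background in a channel of every array, and fits on levels those above it on both arrays of at least 1 RNA sample. The number of arrays limits the precision. The adipocyte genes, the other gene lists and the tests were chosen with earlier results of these data known. From each other list up to 4 genes could be named, the 2 highest and 2 lowest by mean ratio among probes above background; genes past the thresholds, and Cidea and Elovl3 by time, Thrsp's levels and Ppargc1a, Prdm16, Zic1, Kcnk3 and sebaceous genes by time, and Crem, were described after their values were seen. Coordinates are mm9 as in the files, and promoters are RefSeq on GRCm38.p6. Alternatives were other normalizations, filters, thresholds, single arrays and omitted comparisons.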

Additional observations from a re-analysis of the deposited data

Results flagged for a closer look

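The effect of PACAP on Ucp1 had opposite signs in the genotypes on every array in the Feature Extraction ratios, with log2 ratios of -0.37, -0.44, -0.18 and -0.15 on the WT arrays and 0.19, 0.45, 0.12 and 0.15 on the KO arrays. The difference of KO from WT was 0.51 on the log2 scale, with a limma adjusted p of 0.84. With normexp and loess the KO ratio at 60 min was -0.0058 and the difference 0.25 (SE 0.12, limma adjusted p = 0.85), so the sign in that comparison depended on the normalization. Each genotype lay on its own slide, and the slide cannot be told apart from the genotype.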

How the results depend on the processing

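The number of adipocyte probes past the thresholds remained 0 in every comparison under every alternative, including 1.5-fold, no p filter and single arrays, and single gene ratios lay between -0.88 and 0.45 on the log2 scale. The median ratio moved by more than the spread of the dye-swapped arrays to -0.037 in WT at 30 min on the array with PACAP in Cy5, to -0.075 in WT at 60 min with normexp and loess, and, changing sign, to 0.057 in KO at 30 min and 0.044 in KO at 60 min on the arrays with PACAP in Cy3. In the fits, leaving out each comparison in turn left 0 to 0 adipocyte probes at an adjusted p below 0.05. The other alternatives left 0, except that scaling to the 75th percentile gave 2 for time (Ucp1 and Lep). The range of the mean adipocyte level was 0.291 under that scaling and 0.117 with all probes of a gene. The cause was not tested. The alternatives for the levels that were chosen after seeing the data were the PACAP samples in place of the vehicle samples and, for time, leaving out samples with no genotype covariate. No paired analysis was possible because the replicate numbers mark only the dye orientation of the same pair of RNA samples, apart from the pairing of PACAP with vehicle RNA on each array, which every ratio and the fit over the 4 comparisons already hold. Among the brightest probes, that of Lep was well above background in the fewest channels, 13 of 16, and the size of its values depended on the processing. For KO mice after 30 min, Feature Extraction gave Lep a log2 ratio of -0.36, whereas normexp and loess gave -0.051. The levels of Lep spanned 0.34 on the main scale and 1.73 with signals scaled to the 75th percentile.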
